A study of Mus musculus with 20 samples.

Results

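The Cyp1, Cyp2 and Cyp3 families hold the cytochrome P450 enzymes that carry out most oxidation of drugs and other foreign compounds in liver. On the 20 liver arrays, 53 genes of these families were each measured by 1 probe set that names no other gene, out of 25689 probe sets with values. Members were taken by gene symbol alone (Cyp, then 1, 2 or 3, a letter and a number). They fall into 16 subfamilies, of which Cyp2c (13 genes), Cyp2d (10), Cyp2j (6), Cyp3a (6) and Cyp2b (5) are the largest, and 2 members, Cyp2d13 and Cyp2d37-ps, are annotated as transcribed pseudogenes. Another 5 probe sets name several genes of these families and had no value on any array. Cyp2a4 and Cyp2a5, for example, were read only by such a probe set and are not analysed here.

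Whole livers came from untreated 8-week-old mice on a mixed 129Pas x C57Bl/J background, with 5 mice in each of 4 groups, namely Crem knock-out (KO) at 12 h, wild type (WT) at 12 h, KO at 0 h and WT at 0 h. The lights came on at 0 h and went off at 12 h. The KO carries a neomycin cassette across the DNA-binding domains of Crem in every tissue from conception. Crem, the cAMP-responsive element modulator, encodes both activating and repressing factors. All 12 h arrays form batch 5 and the 0 h arrays form batches 1 to 4, each with both genotypes, so genotype can be compared within batches, whereas the effects of time and of batch cannot be told apart.

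The Crem probe set had log2 levels of 7.39 to 7.83 in KO and 7.90 to 8.02 in WT livers at 12 h, with no overlap. At 0 h the levels were 7.43 to 8.17 in KO and 8.11 to 8.54 in WT livers, and the KO mouse numbered 1 was the array inside the WT range. A sample list of the study gives this number to no adult mouse, and to a prepubertal wild-type mouse in a separate series of numbers. The other 0 h mice all appear there as adults of the same genotype. The shared number does not show which animal this was, so the identity of the array is in doubt. It was kept under its label, and values without it are given beside the results it changed. The difference averaged over both times was −0.42 ± 0.08 (log2, SE, n = 10 mice per genotype, adjusted p = 0.135 in limma), and −0.46 ± 0.08 without KO mouse 1 (adjusted p = 0.0494 in limma). Which part of the transcript the probe set reads was not tested. Summed levels of 4 measured hepatocyte markers (Alb, Apoa1, Ttr and Tat, all of which hepatocytes are known for) lay between 15.93 and 16.06 (log2) on all 20 arrays.

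P450 enzymes are heme proteins of the endoplasmic reticulum that take electrons from P450 oxidoreductase. Their genes lie in clusters of recent duplicates, and many are switched by ligand-activated receptors. PXR (Nr1i2) is known for Cyp3a11, CAR (Nr1i3) for Cyp2b10 and the aryl hydrocarbon receptor (Ahr) for the Cyp1 genes. In mice several Cyp2b and Cyp3a genes are higher in female liver and Cyp2d9 is higher in male liver, under the control of the growth hormone rhythm, and the PAR bZIP factors Dbp, Tef and Hlf link some of the detoxification genes to the circadian clock.

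Values are log2 levels as deposited, so 1 unit is a 2-fold difference. Each probe set has its own response, so differences were tested between mice, and the percentiles below describe how bright a probe set was and do not rank amounts of transcript. Of the 53 members, 32 (60.4%) were brighter than the median probe set, where the background share is 50.0% by construction. Cyp2e1, which oxidises ethanol and acetaminophen, stood at the 99.9th percentile of all probe sets by mean level, as did Cyp2f2, which oxidises naphthalene. Cyp2c70, which makes the muricholic acids of mouse bile, was at the 99.8th and Cyp1a2 at the 99.5th. At the other end, the percentile was 5.6 for Cyp2c65, 7.0 for Cyp3a16 and 7.1 for Cyp2j12.

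Some bright members varied little between mice. Cyp2e1 ranged over 13.95 to 14.06 in KO and 14.02 to 14.13 in WT livers at 12 h, and over 13.78 to 13.92 in KO and 13.88 to 14.03 in WT livers at 0 h. The pooled SD within groups was 0.05 for Cyp2d10 and Cyp2d26 and 0.06 for Cyp2e1, Cyp2f2 and Cyp2d22, all below the 1st percentile of all probe sets. It was 0.14 for Cyp2c70, at the 38.5th percentile. By contrast 7 members (13.2%) exceeded the 95th percentile of SD, a limit that 5.00% of probe sets pass by construction, namely Cyp2a22, Cyp2b9, Cyp2b10, Cyp2c38, Cyp2c39, Cyp2c55 and Cyp2d12. Saturation of the brightest probe sets was not tested.

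The first comparison asks which members differed between 12 h and 0 h. In KO livers 14 of 53 members passed an adjusted p of 0.05 (limma, Benjamini-Hochberg over all 25689 probe sets), 5 higher and 9 lower at 12 h, a share of 26.4% where 20.3% of all probe sets passed (10.6% higher and 9.69% lower). In WT livers 18 members passed, 10 higher and 8 lower, a share of 34.0% where 27.8% of all probe sets passed (13.5% higher and 14.3% lower). With each array centred on its median, which differed by −0.073 between times, the split was 8 higher and 7 lower in KO livers (15.1% and 13.2%), where 14.3% of all probe sets were higher and 6.24% lower. In WT livers it was then 14 higher and 4 lower (26.4% and 7.55%), where 20.6% were higher and 7.77% lower. So centred, Cyp2c66 and Cyp2c68 no longer passed in KO livers, nor Cyp2c68, Cyp2j5, Cyp2w1 and Cyp3a13 in WT livers. Cyp2c23, Cyp2d13 and Cyp2e1 then passed as higher in KO livers, and Cyp2c37, Cyp2c54, Cyp2d26 and Cyp2e1 in WT livers. Before centring, Cyp2e1 differed between times by 0.13 in KO and 0.11 in WT livers. Without KO mouse 1, 11 members passed in KO livers (Cyp1a2, Cyp2c66 and Cyp3a57 did not) and 17 in WT livers (Cyp2c38 did not). In all, 10 members passed in the same direction in both genotypes (18.9%, background 14.4%), and groups did not overlap between times for 10 members in KO (18.9%, background 16.4%) and 10 in WT livers (18.9%, background 17.5%). These shares lay near those of the whole array, so they say little of the members as a class.

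Of these 10, Cyp1a2, Cyp2d22 and Cyp2d37-ps were higher at 12 h, and Cyp2c68, Cyp2c70, Cyp2d40, Cyp2j5, Cyp2r1, Cyp2w1 and Cyp3a13 were lower. The largest difference was that of Cyp2d40, a member of the debrisoquine hydroxylase subfamily. In KO livers its levels were 10.19, 10.27, 10.56, 10.58 and 10.67 at 12 h and 11.26, 11.42, 11.61, 11.73 and 11.73 at 0 h. In WT livers they were 10.01, 10.27, 10.45, 10.65 and 10.96 at 12 h and 11.49, 11.54, 11.54, 11.66 and 11.91 at 0 h. No 12 h liver reached any 0 h liver, and the log2 difference was −1.10 ± 0.14 in KO (adjusted p = 8.76e-06) and −1.16 ± 0.14 in WT livers (adjusted p = 4.16e-06, limma, SE, n = 5 mice per group). The means of the 4 batches at 0 h spanned 0.39.

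The Cyp2d cluster on chromosome 15 went different ways within itself. Cyp2d37-ps, the pseudogene next to Cyp2d40 in gene order, was higher at 12 h by 0.62 ± 0.09 in KO (11.84 to 12.06, against 11.20 to 11.43 at 0 h) and by 0.58 ± 0.09 in WT livers (11.77 to 12.04, against 10.97 to 11.56). Cyp2d22 at the other end of the cluster was higher by 0.36 ± 0.06 in KO and by 0.39 ± 0.06 in WT livers, with an adjusted p of 0.000129 in KO and 4.95e-05 in WT livers (limma). Cyp2d26, which flanks Cyp2d40 on its other side, moved by 0.07 in KO and 0.09 in WT livers and did not pass (adjusted p = 0.432 in KO and 0.253 in WT livers, limma). With each array centred on its median, Cyp2d26 passed as higher in WT livers. Cyp2d11 passed in KO livers alone, at 0.48 ± 0.15 in KO (adjusted p = 0.0308, limma) and 0.19 in WT livers, and this call was lost when KO mouse 18, 76, 109, 143, 144 or 166 was left out. Of the 10 Cyp2d genes, 3 were higher and 1 lower in KO and 2 were higher and 1 lower in WT livers. Duplicates of this kind may share probe sequence, and cross-hybridization between them was not tested.

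**Figure D1:**
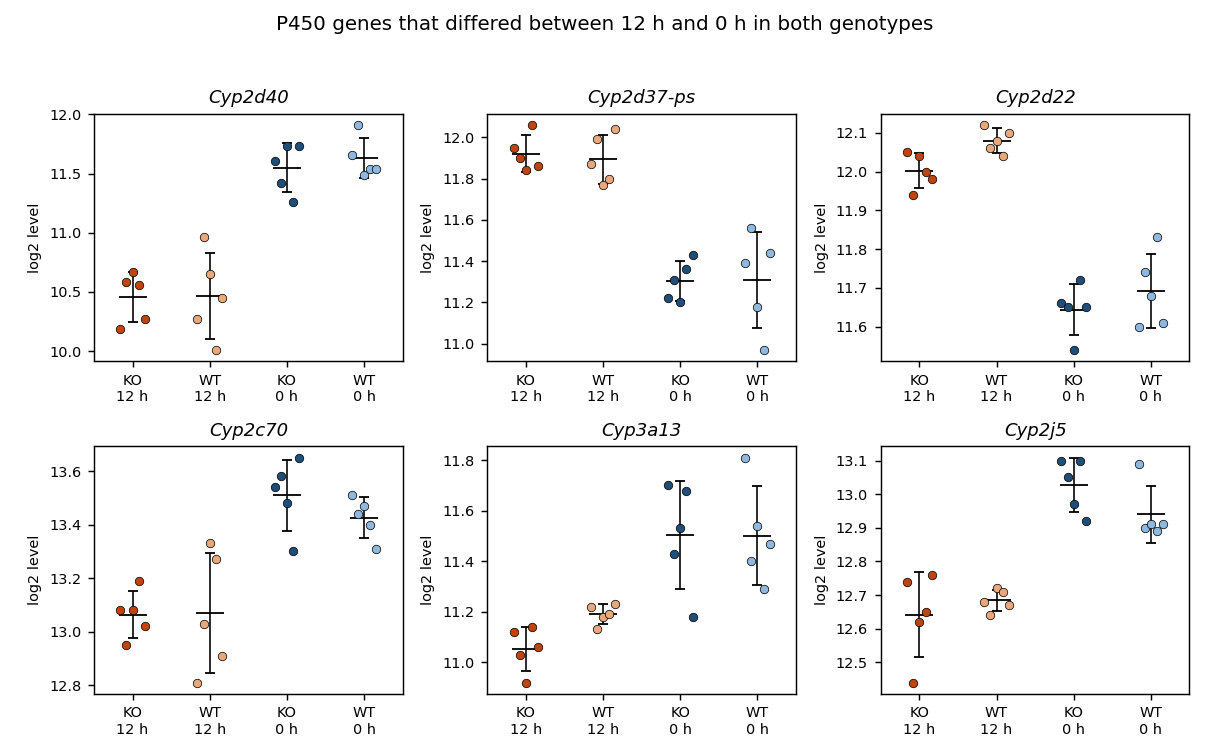
Log2 level (y axis) of Cyp2d40, Cyp2d37-ps, Cyp2d22, Cyp2c70, Cyp3a13 and Cyp2j5 in each liver, by group (x axis). Points are mice, the horizontal mark is the mean and the bars are 1 SD (n = 5 per group). Cyp2d40, Cyp2c70, Cyp3a13 and Cyp2j5 lay lower at 12 h than at 0 h in both genotypes, and Cyp2d37-ps and Cyp2d22 lay higher with no overlap.

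The 250 bases before the annotated start of Cyp2d40 (RefSeq, GRCm38.p6, chr15:82764123-82764372, minus strand) are shown because this gene had the largest difference with time. They hold none of the 5 sequences searched on both strands, namely the E-box CACGTG, the D-boxes TTATGTAA and TTACGTAA, the RORE core TAGGTCA and the full cAMP-responsive element TGACGTCA.

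Cyp2d40: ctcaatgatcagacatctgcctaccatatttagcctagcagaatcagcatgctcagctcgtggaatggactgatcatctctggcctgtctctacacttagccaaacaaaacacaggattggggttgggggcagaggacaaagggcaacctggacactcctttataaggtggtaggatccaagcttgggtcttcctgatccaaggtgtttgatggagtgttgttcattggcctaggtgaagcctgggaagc

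Windows of this kind were found for 44 of the 53 members, and 2 of them held any of the 5 sequences, where 10.5% of 32841 windows of all genes did. The E-box alone was in 6.02% of all windows, TAGGTCA in 2.24%, TGACGTCA in 1.55%, TTATGTAA in 0.819% and TTACGTAA in 0.113%. The 2 matches are in capitals here, the E-box of Cyp2j6 (chr4:96553652-96553901, minus strand) beginning 44 bases before the start and the TAGGTCA of Cyp3a11 (chr5:145879855-145880104, minus strand) beginning 163 bases before it. The shorter TGACG, which lies within TGACGTCA, was in the windows of Cyp2j5 and Cyp2j9 and in 17.8% of all windows. These are matches of letters in a short window and say nothing of binding.

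Cyp2j6: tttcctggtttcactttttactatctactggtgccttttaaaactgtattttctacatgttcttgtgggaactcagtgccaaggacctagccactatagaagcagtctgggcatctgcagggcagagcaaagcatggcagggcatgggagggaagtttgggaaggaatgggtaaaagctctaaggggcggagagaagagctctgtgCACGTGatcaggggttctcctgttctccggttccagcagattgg

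Cyp3a11: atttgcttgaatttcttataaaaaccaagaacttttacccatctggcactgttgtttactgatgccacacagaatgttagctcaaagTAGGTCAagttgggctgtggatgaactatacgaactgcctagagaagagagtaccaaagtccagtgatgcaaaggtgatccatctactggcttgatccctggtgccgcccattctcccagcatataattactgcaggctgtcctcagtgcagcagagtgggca

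Neither of these genes passed with time. Cyp3a11, the main PXR target and the mouse gene most often read as drug oxidation capacity, had −0.34 ± 0.13 in KO (adjusted p = 0.062) and −0.33 ± 0.13 in WT livers (adjusted p = 0.0565, limma). Its levels were 11.09, 11.43, 11.47, 11.47 and 11.87 in KO and 11.30, 11.40, 11.78, 11.78 and 11.95 in WT livers at 12 h, and 11.73, 11.74, 11.78, 11.84 and 11.92 in KO and 11.82, 11.83, 11.94, 12.07 and 12.17 in WT livers at 0 h. The times overlapped in both genotypes. Cyp3a13, another PXR target, did pass, at −0.45 ± 0.10 in KO (10.92 to 11.14 at 12 h, against 11.18 to 11.70 at 0 h) and −0.31 ± 0.10 in WT livers (11.13 to 11.23, against 11.29 to 11.81). The WT call of Cyp3a13 was lost without WT mouse 146 (−0.24, adjusted p = 0.0591, limma).

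Members of the Cyp2c cluster on chromosome 19 also split. Cyp2c70 was lower at 12 h, at −0.44 ± 0.09 in KO and −0.35 ± 0.09 in WT livers (adjusted p = 0.00116 in KO and 0.00611 in WT livers, limma). Its levels were 12.95, 13.02, 13.08, 13.08 and 13.19 in KO and 12.81, 12.91, 13.03, 13.27 and 13.33 in WT livers at 12 h, and 13.30, 13.48, 13.54, 13.58 and 13.65 in KO and 13.31, 13.40, 13.44, 13.47 and 13.51 in WT livers at 0 h. KO livers did not overlap between times, and 1 WT mouse at 12 h exceeded 1 WT mouse at 0 h. Cyp2c68 was lower, at −0.39 ± 0.13 in KO and −0.43 ± 0.13 in WT livers. Its KO call was lost without KO mouse 18, 55, 77, 109, 143, 144 or 166, and its WT call without WT mouse 146 or 167. Its neighbour Cyp2c67 had −0.31 in KO livers, which did not pass, and −0.48 ± 0.11 in WT livers. Its means were 12.14 ± 0.24 in KO and 12.04 ± 0.14 in WT livers at 12 h, and 12.45 ± 0.20 in KO and 12.52 ± 0.17 in WT livers at 0 h (SD, n = 5), and WT livers did not overlap between times. Cyp2c66 passed in KO livers alone (−0.31 in KO and 0.02 in WT livers), and not without KO mouse 1, 18, 55, 76, 77, 144 or 166.

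In the opposite direction, Cyp2c23, Cyp2c38 and Cyp2c39 were higher at 12 h in WT livers. Cyp2c23, an arachidonic acid epoxygenase, had 0.27 ± 0.07 in WT livers with no overlap (12.78 to 12.94 at 12 h, against 12.45 to 12.73 at 0 h) and 0.19 in KO livers. Cyp2c39, a retinoic acid hydroxylase, had 0.39 in KO and 0.52 ± 0.18 in WT livers. Cyp2c38 had 0.65 in KO and 0.92 ± 0.34 in WT livers, and its WT call (adjusted p = 0.0495, limma) was lost in 21 of 28 alternatives, with an adjusted p between 0.0103 and 0.187 over all of them. The call of Cyp2c39 was lost when WT mouse 78, 145, 168 or 170 was left out. The means of the 0 h batches spanned 0.56 for Cyp2c38 and 0.73 for Cyp2c39, which is more than the WT difference of Cyp2c39.

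Single-gene subfamilies and others gave a few further calls. Cyp2r1, a vitamin D 25-hydroxylase, was lower at 12 h, at −0.43 ± 0.10 in KO (8.48 to 8.68, against 8.78 to 9.23 at 0 h) and −0.39 ± 0.10 in WT livers (8.35 to 8.81, against 8.80 to 9.14). Cyp2j5, an arachidonic acid epoxygenase, was lower, at −0.39 ± 0.07 in KO (12.44 to 12.76, against 12.92 to 13.10) and −0.26 ± 0.07 in WT livers (12.64 to 12.72, against 12.89 to 13.09). Cyp2w1 was lower, at −0.36 ± 0.08 in KO and −0.23 ± 0.08 in WT livers, with the WT call lost without WT mouse 78, 80, 111, 167 or 168. Cyp1a2, which metabolises caffeine and aromatic amines, was higher by 0.19 ± 0.06 in KO (12.78 to 12.91, against 12.49 to 12.78) and 0.18 ± 0.06 in WT livers (12.78 to 12.93, against 12.59 to 12.77), close to the 0.15 spanned by the 0 h batches. Its call was lost in 9 of 28 alternatives in KO and in 10 of 28 in WT livers. Cyp3a57, a dim probe set, had 0.49 ± 0.16 in KO and 0.16 in WT livers and passed in KO alone, unless KO mouse 1, 55, 76 or 109 was left out. Cyp2b23 had −0.48 ± 0.13 in KO and −0.20 in WT livers and also passed in KO alone. The means of the 0 h batches spanned 0.32 for Cyp3a13, 0.42 for Cyp2c68, 0.47 for Cyp2d11 and 0.65 for Cyp3a57. For each of these genes this was near or above the size of at least 1 called time difference.

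Cyp2a12, a bright neighbour of Cyp2a22 that hydroxylates steroids and bile acids, moved by −0.01 in both genotypes, with levels between 11.84 and 12.16 on all arrays. Cyp2a22 was dim and spread widely. It had 4.87, 5.43, 5.65, 5.76 and 6.28 in KO and 5.20, 5.50, 5.94, 6.12 and 6.33 in WT livers at 12 h, and 4.37, 4.39, 4.93, 5.73 and 5.97 in KO and 4.70, 4.74, 4.80, 4.87 and 5.11 in WT livers at 0 h. WT livers did not overlap between times (0.98 ± 0.28, adjusted p = 0.0135, limma), and KO livers did (0.52, not passed). At 0 h the KO livers alone were spread over more than 1 log2 unit.

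Across the 53 members the time difference in KO livers tracked that in WT livers, with Pearson's r of 0.75 and Spearman's rho of 0.75 as a description across genes that share arrays, and 42 had the same sign (79.2%, all probe sets 77.1%). The difference in the time effect between genotypes, tested as an interaction, passed for 0 members and for 0% of all probe sets (limma), with 2 members at an unadjusted p under 0.05 (Cyp2b19 and Cyp2c66, background 6.84%). So the calls found in 1 genotype alone (4 in KO, background 5.86%, and 8 in WT livers, background 13.4%) are not shown to differ between genotypes.

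**Figure D2:**
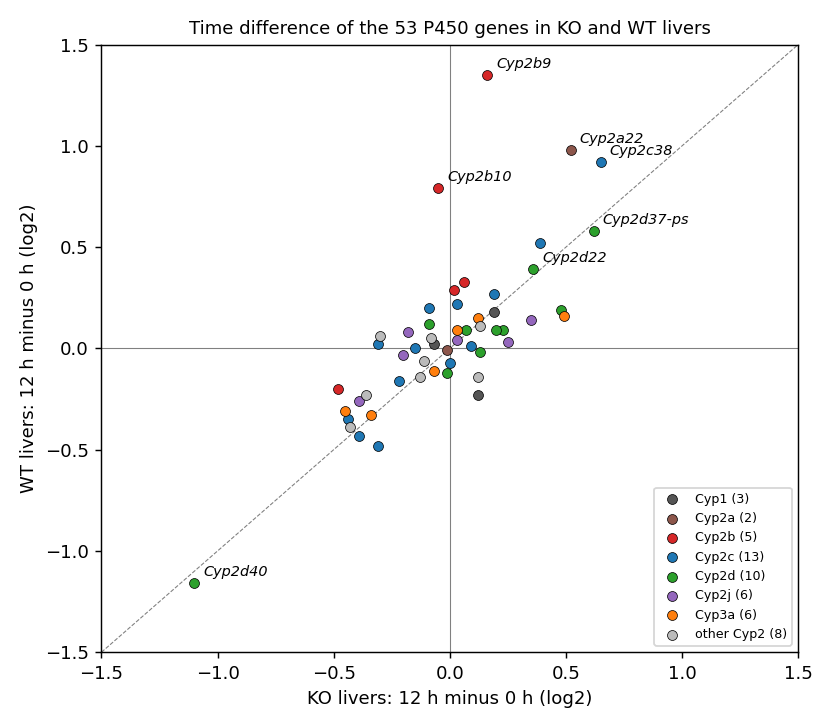
Difference between 12 h and 0 h (log2) of each of the 53 members in KO livers (x axis) and WT livers (y axis), coloured by subfamily, with the number of genes in brackets and the line of equality dashed. Most genes lie near the line, Cyp2d40 is lowest on both axes, at −1.10 in KO and −1.16 in WT livers, and Cyp2b9 lies farthest above it, at 0.16 in KO and 1.35 in WT livers.

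Other gene lists, written with earlier results of these data known, were compared between times as well. Of 15 receptors and partners, 9 were higher and 1 lower at 12 h in KO and 11 were higher and 0 lower in WT livers. Of all probe sets, 10.6% were higher and 9.69% lower in KO, and 13.5% higher and 14.3% lower in WT livers. These shares are also the background for the target lists and cell type markers below. PXR (Nr1i2) was higher by 0.50 in KO and 0.56 in WT livers, and CAR (Nr1i3) by 0.64 in KO and 0.88 in WT livers. Their shared partner Rxra was higher by 0.61 in KO and 0.49 in WT livers, and the fatty acid receptor Ppara by 0.90 in KO and 0.83 in WT livers. Ahr had 0.27 in KO livers, which did not pass, and was higher by 0.54 in WT livers. All 3 PAR bZIP factors were higher and their antagonist Nfil3 lower in both genotypes, with Dbp at 2.99 in KO and 2.80 in WT livers. Alas1, which sets the rate of heme synthesis, was higher by 1.81 in KO and 1.44 in WT livers, whereas Hmox1, which breaks heme down, was lower, at −0.50 in KO and −0.63 in WT livers.

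The known targets of these receptors did not share 1 direction. Of 9 measured CAR targets, 0 were higher and 3 lower in KO (Aldh1a1, Aldh1a7 and Sult5a1, none a P450 gene) and 0 passed in WT livers. Of 8 PXR targets, 3 were higher (Slco1a4, Abcb1a and Abcc2, all transporters) and 2 lower (Cyp3a13 and the carboxylesterase Ces2a) in both genotypes. Of 7 AHR targets, Cyp1a2 was higher in KO livers, and Cyp1a2 and Nqo1 were higher in WT livers. Cyp1a1 and Cyp1b1, the inducible AHR targets, were dim and passed in neither.

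Cell type markers also differed between times. Of 6 Kupffer cell and macrophage markers, 2 were lower at 12 h in KO and 5 in WT livers, with summed levels of 12.02 to 12.42 in KO and 11.83 to 12.21 in WT livers at 12 h, and 12.28 to 12.68 in KO and 12.46 to 12.79 in WT livers at 0 h. Periportal hepatocyte markers summed to 15.27 to 15.33 in KO and 15.34 to 15.48 in WT livers at 12 h, and 15.06 to 15.22 in KO and 15.09 to 15.23 in WT livers at 0 h, and 1 of 5 was higher in KO (Pck1) and 2 in WT livers (Pck1 and Cps1), with list medians of 0.08 in KO and 0.10 in WT livers. Cholangiocyte markers, of which 1 of 4 was lower in each genotype, summed to 9.28 to 9.49 in KO and 9.30 to 9.57 in WT livers at 12 h, and 9.68 to 9.89 in KO and 9.64 to 10.04 in WT livers at 0 h. Of 4 intestine markers, Fabp2 was lower (−1.29 in KO and −1.35 in WT livers) and Lgals4 higher. Of 7 pericentral hepatocyte markers, Slc1a2 was higher (0.42 in KO and 0.54 in WT livers). The pancreas marker Cela1 was lower in both genotypes. In WT livers alone, the sinusoidal Stab2 and the stellate Lrat and Reln were higher, and the erythroid Alas2 was lower. No neutrophil or lymphocyte marker passed. Fewer cells of a type and less RNA per cell cannot be told apart in whole liver, and the part of these cells in the P450 differences was not tested. Of the 4 measured hepatocyte markers, 0 passed in KO livers and Tat alone passed in WT livers, at 0.24.

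The second comparison asks which members differ between KO and WT livers. At an adjusted p of 0.05 (limma) 0 of 53 passed at 12 h, where 0.0234% of all probe sets did. Likewise 0 passed at 0 h (background 0%), and 0 when the genotypes were compared over the mean of both times (background 0.0117%). At an unadjusted p under 0.05, 11 members were lower and 0 higher in KO livers at 12 h, a share of 20.8% where 6.14% of all probe sets were lower and 6.38% higher. At 0 h, 2 members were lower (Cyp2c38 and Cyp3a44) and 0 higher, 3.77% where 2.27% of all probe sets were lower and 2.20% higher. Averaged over both times, 9 were lower and 0 higher, 17.0% where 5.06% of all probe sets were lower and 4.82% higher.

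The 11 at 12 h were Cyp2b9, Cyp2b13, Cyp2c23, Cyp2c37, Cyp2c38, Cyp2c39, Cyp2c50, Cyp2c54, Cyp2c66, Cyp2j12 and Cyp3a44. Genes of 1 cluster share sequence and mice, and are not independent. For 4 of them (Cyp2b13, Cyp2c38, Cyp2c54 and Cyp2j12, 7.55% of members) every KO liver was below every WT liver at 12 h, where 1.24% of all probe sets showed this. In each alternative run, 0 members passed an adjusted p for genotype, and the unadjusted count at 12 h ranged over 8 to 13. Those alternatives include leaving out KO mouse 1.

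Cyp2c38, an epoxygenase of the Cyp2c cluster, had the largest difference averaged over both times, −0.89 ± 0.24 (95% CI −1.40 to −0.39, unadjusted p = 0.00141, adjusted p = 0.267, limma). At 12 h its levels were 8.24, 8.28, 8.60, 8.76 and 8.84 in KO and 9.23, 9.23, 9.65, 9.83 and 9.92 in WT livers. The genotypes did not overlap, which alone sets the exact permutation p at 0.0079, two-sided, the smallest that 5 against 5 mice can give. Cyp2c38 was chosen for its small p on these same arrays, so this p is no separate check. At 0 h they were 6.53, 7.89, 8.19, 8.34 and 8.50 in KO and 7.70, 8.03, 8.40, 9.35 and 9.75 in WT livers, which overlapped (exact permutation p = 0.214). Within batches KO minus WT was −1.16, 0.64, −0.02 and −3.22 in batches 1 to 4, each of which holds a single mouse of at least 1 genotype, and −1.03 in batch 5. Without KO mouse 76 the 0 h difference was −0.42 in place of −0.76, without WT mouse 147 it was −0.48, and without KO mouse 1 it was −0.87.

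Cyp3a44, a female-biased gene of the Cyp3a cluster, had KO minus WT of −0.52, −0.40, −0.31 and −0.36 within batches 1 to 4 and −0.33 within batch 5. At 12 h the levels were 7.62, 7.85, 7.97, 8.08 and 8.19 in KO and 7.99, 8.16, 8.18, 8.41 and 8.63 in WT livers. At 0 h they were 7.72, 7.98, 7.99, 8.09 and 8.27 in KO and 8.01, 8.09, 8.38, 8.65 and 8.79 in WT livers. The genotypes overlapped at both times, and the difference averaged over them was −0.35 ± 0.10 (adjusted p = 0.319, limma), at −0.30 to −0.40 when any single array was left out. In all, 5 members were lower in KO livers within every batch (Cyp2c68, Cyp2d26, Cyp2e1, Cyp3a11 and Cyp3a44, 9.43%, background 4.43%) and 2 were higher (Cyp1b1 and Cyp2s1, 3.77%, background 4.37%).

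The Cyp3a44 window (chr5:145805875-145806124, minus strand) is set beside that of Cyp3a16 (chr5:145469724-145469973, minus strand), its closest relative here by these bases, with bases in capitals where the alignment has no identical partner. The alignment had 236 identical of 254 columns (92.9%).

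Cyp3a44: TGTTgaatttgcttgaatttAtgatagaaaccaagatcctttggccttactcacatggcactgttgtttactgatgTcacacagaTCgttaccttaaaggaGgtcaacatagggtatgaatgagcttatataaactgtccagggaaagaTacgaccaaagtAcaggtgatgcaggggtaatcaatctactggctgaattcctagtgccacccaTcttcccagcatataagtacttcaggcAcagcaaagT

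Cyp3a16: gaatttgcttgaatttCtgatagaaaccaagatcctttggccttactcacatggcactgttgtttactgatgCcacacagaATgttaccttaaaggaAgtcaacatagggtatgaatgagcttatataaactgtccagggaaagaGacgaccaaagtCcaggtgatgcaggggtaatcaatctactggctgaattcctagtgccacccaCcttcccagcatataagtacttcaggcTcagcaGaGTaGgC

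Cyp3a16, a fetal and female gene, was dim on every array (4.28 to 4.90) and had −0.10 averaged over both times (adjusted p = 0.699, limma). Of the 6 Cyp3a genes, 5 had a negative difference at 12 h (median −0.13) and 4 at 0 h (median −0.12).

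**Figure D3:**
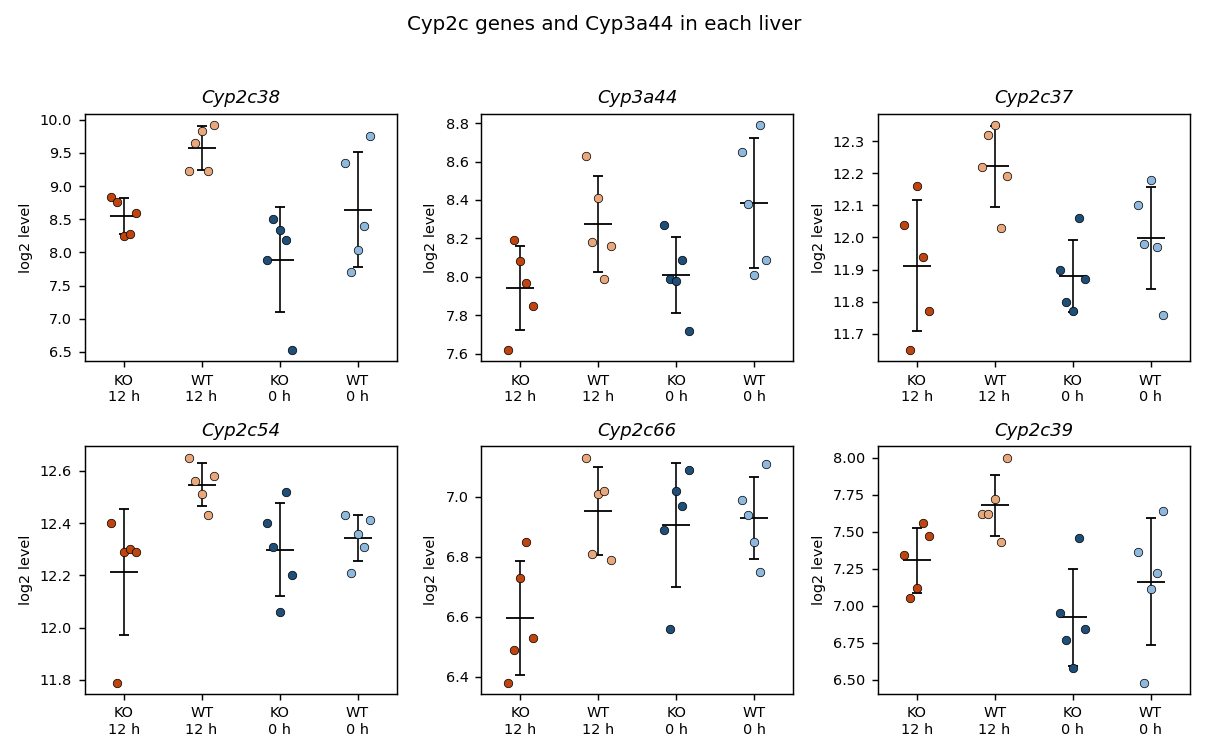
Log2 level (y axis) of Cyp2c38, Cyp3a44, Cyp2c37, Cyp2c54, Cyp2c66 and Cyp2c39 in each liver, by group (x axis). Points are mice, the horizontal mark is the mean and the bars are 1 SD (n = 5 per group). For Cyp2c38 and Cyp2c54 the KO livers at 12 h all lie below the WT livers at 12 h, and the other pairs of genotypes overlap.

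Among the other Cyp2c genes, Cyp2c37, a CAR target, had means of 11.91 ± 0.20 in KO and 12.22 ± 0.13 in WT livers at 12 h (SD, n = 5), and levels of 11.77, 11.80, 11.87, 11.90 and 12.06 in KO and 11.76, 11.97, 11.98, 12.10 and 12.18 in WT livers at 0 h. Its difference averaged over both times was −0.21 ± 0.07 (adjusted p = 0.333, limma). Cyp2c54, next to it in gene order, averaged 12.21 ± 0.24 in KO and 12.54 ± 0.08 in WT livers at 12 h, with no overlap. At 0 h it ranged over 12.06 to 12.52 in KO and 12.21 to 12.43 in WT livers, which overlapped. The 12 h difference of Cyp2c54 was −0.33 ± 0.10, and −0.22 without KO mouse 55, whose value was the low one.

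Cyp2c66 had 6.38, 6.49, 6.53, 6.73 and 6.85 in KO and 6.79, 6.81, 7.01, 7.02 and 7.13 in WT livers at 12 h, and 6.56 to 7.09 in KO and 6.75 to 7.11 in WT livers at 0 h. The difference was −0.36 ± 0.10 at 12 h and −0.02 ± 0.10 at 0 h, and the interaction was −0.33 ± 0.15 (unadjusted p = 0.0344, adjusted p = 0.706, limma). Cyp2j12, a dim probe set, had 4.29 to 4.55 in KO and 4.61 to 4.80 in WT livers at 12 h.

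Within the Cyp2c subfamily, 12 of 13 Cyp2c genes were lower in KO livers at 12 h (median −0.15, range −1.03 to 0.10) and 12 of 13 at 0 h (median −0.07, range −0.76 to 0.08), where 49.6% and 50.3% of all probe sets were lower. With an array left out or the arrays scaled again, the 12 h median lay between −0.19 and −0.10 and 10 to 12 genes were lower, with 10 of 13 both under quantile normalization and without KO mouse 55. The 0 h median then lay between −0.13 and −0.05 and 9 to 12 genes were lower, with 9 of 13 without KO mouse 1 and 10 of 13 without KO mouse 76 or WT mouse 146 or 147. The Cyp2d genes had 5 of 10 lower at 12 h and 7 of 10 at 0 h (median −0.05), and the Cyp2j genes 3 of 6 and 2 of 6 (medians 0.02 and 0.06). Being counts and medians of related genes, these carry no test.

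**Figure D4:**
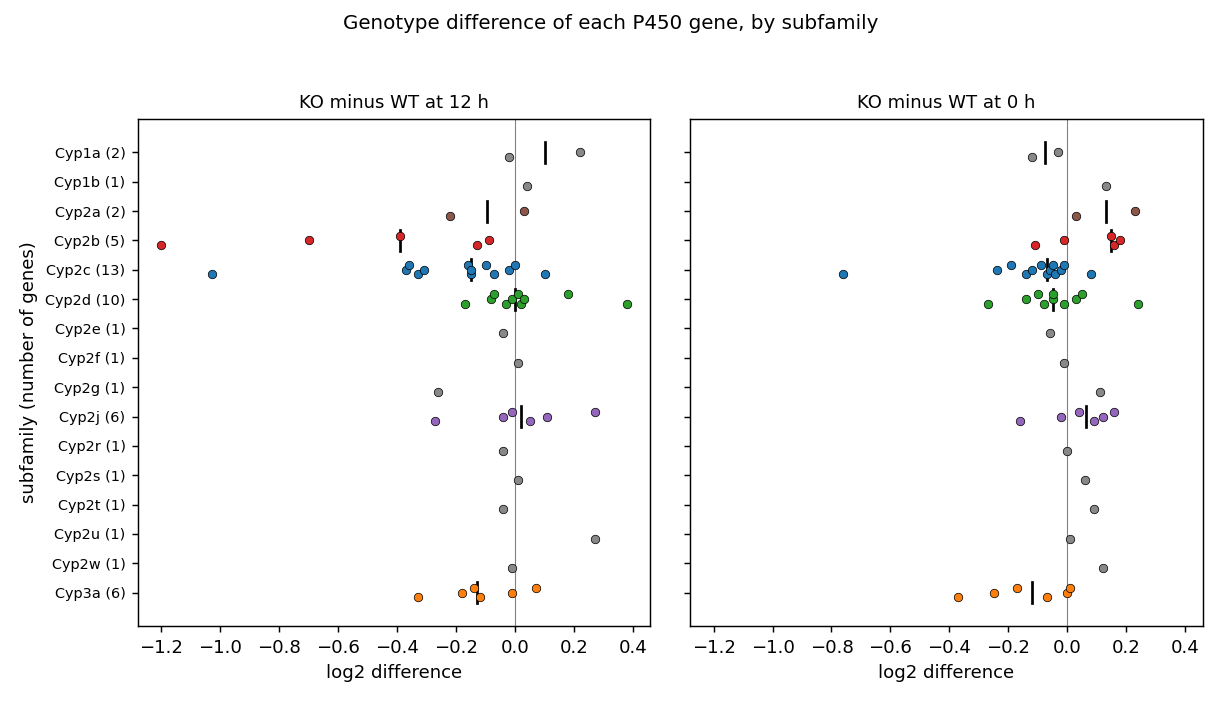
KO minus WT (log2 difference, x axis) of each of the 53 members, by subfamily (y axis, number of genes in brackets), at 12 h on the left and at 0 h on the right. Points are genes and the vertical marks are medians of subfamilies with several genes. The 5 Cyp2b genes are all below 0 at 12 h with a median of −0.39 and on both sides of 0 at 0 h with a median of 0.15 that is −0.01 without KO mouse 76, and 12 of 13 Cyp2c genes are below 0 on each side (9 of 13 at 0 h without KO mouse 1).

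The Cyp2b genes on chromosome 7 include the 2 members with the widest spread within groups, Cyp2b9 (pooled SD 0.81) and Cyp2b10 (0.71). All 5 were on the lower side in KO livers at 12 h (median −0.39), and 2 of 5 at 0 h (median 0.15). The 0 h median was −0.01, with 3 of 5 lower, without KO mouse 76, and 0.07 without WT mouse 78 or WT mouse 145. Cyp2b9, female-biased in mouse liver, had 5.55, 5.57, 5.70, 5.86 and 7.02 in KO and 6.07, 6.44, 6.44, 7.37 and 9.39 in WT livers at 12 h. At 0 h it had 5.28, 5.38, 5.68, 5.86 and 6.73 in KO and 5.52, 5.58, 5.74, 5.92 and 6.23 in WT livers. A single WT mouse, 111, was at 9.39, and in KO livers mouse 166 was at 7.02.

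The 12 h difference between genotypes of Cyp2b9 was −1.20 ± 0.44 (unadjusted p = 0.0125, adjusted p = 0.262, exact permutation p = 0.0952, two-sided), and −0.64 ± 0.30 without WT mouse 111 (unadjusted p = 0.0469, limma). Its difference between times was 0.16 in KO (adjusted p = 0.846) and 1.35 ± 0.44 in WT livers (adjusted p = 0.0265, limma). Without WT mouse 111 the WT value was 0.79 ± 0.30 (adjusted p = 0.0634, limma), and the call was also lost without WT mouse 146 or 147. The interaction was −1.19 ± 0.62 (adjusted p = 0.751, limma).

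Cyp2b10, the gene most often used to read CAR activity, had 6.89, 6.92, 7.50, 7.70 and 7.86 in KO and 6.66, 7.16, 8.07, 8.81 and 9.65 in WT livers at 12 h, and 6.82, 7.28, 7.36, 7.62 and 8.04 in KO and 6.96, 6.99, 7.24, 7.25 and 7.96 in WT livers at 0 h. WT livers at 12 h thus reached both below and above all KO livers. The high mouse was 168 and not 111, whose Cyp2b10 was the lowest of its group. The 12 h difference was −0.70 (adjusted p = 0.48, limma), −0.30 without WT mouse 168 and −1.05 without WT mouse 111.

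Cyp2b13, female-biased like Cyp2b9, was a dim probe set, at the 11.8th percentile by mean level. At 12 h it had 4.83, 5.01, 5.04, 5.06 and 5.21 in KO and 5.24, 5.25, 5.34, 5.50 and 5.75 in WT livers, close together but with no overlap. At 0 h it had 4.86, 4.95, 4.96, 4.98 and 5.11 in KO and 4.89, 4.93, 4.95, 5.26 and 5.39 in WT livers. The 12 h difference was −0.39 ± 0.11 (unadjusted p = 0.00153, adjusted p = 0.154, exact permutation p = 0.0079, two-sided), and −0.25 ± 0.08 averaged over both times (adjusted p = 0.32, limma). Cyp2b13 too was chosen for its small p, and the exact p follows from the lack of overlap. Here WT mouse 168 was highest, as for Cyp2b10 and unlike Cyp2b9. Between times Cyp2b13 was higher at 12 h in WT livers (0.33 ± 0.11), a call lost without WT mouse 78, 146, 147, 168 or 170, and had 0.06 in KO livers. Cyp2b19 and Cyp2b23 had KO minus WT of −0.09 and −0.13 at 12 h. Between times Cyp2b19 was also higher at 12 h in WT livers, by 0.29, and had 0.02 in KO livers. This WT call was lost without WT mouse 78, 145 or 168, and the 0 h batch means of Cyp2b19 spanned 0.35.

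Cyp2b9 and Cyp2b13 are near copies also before their starts. Of 250 aligned bases of the windows at chr7:26173159-26173408 and chr7:26061245-26061494 (both plus strand), 248 were identical (99.2%), the highest of 87 pairs within subfamilies, whose median was 53.1%. The differing bases, in capitals, are T48C and C104T, with the Cyp2b9 base first and positions counted from 1 at the 5′ end of the window. Cyp2b9 and Cyp2b10 shared 71.4% of aligned columns. Cross-hybridization between the Cyp2b probe sets was not tested.

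Cyp2b9: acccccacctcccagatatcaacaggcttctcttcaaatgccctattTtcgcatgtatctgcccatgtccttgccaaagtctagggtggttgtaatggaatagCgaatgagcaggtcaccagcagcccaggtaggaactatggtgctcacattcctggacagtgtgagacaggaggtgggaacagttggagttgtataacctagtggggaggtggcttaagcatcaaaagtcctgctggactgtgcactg

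Cyp2b13: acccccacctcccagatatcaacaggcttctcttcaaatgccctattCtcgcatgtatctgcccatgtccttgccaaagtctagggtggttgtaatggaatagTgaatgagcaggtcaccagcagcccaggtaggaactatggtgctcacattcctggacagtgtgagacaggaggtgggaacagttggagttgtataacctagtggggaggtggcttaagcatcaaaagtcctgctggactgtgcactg

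**Figure D5:**
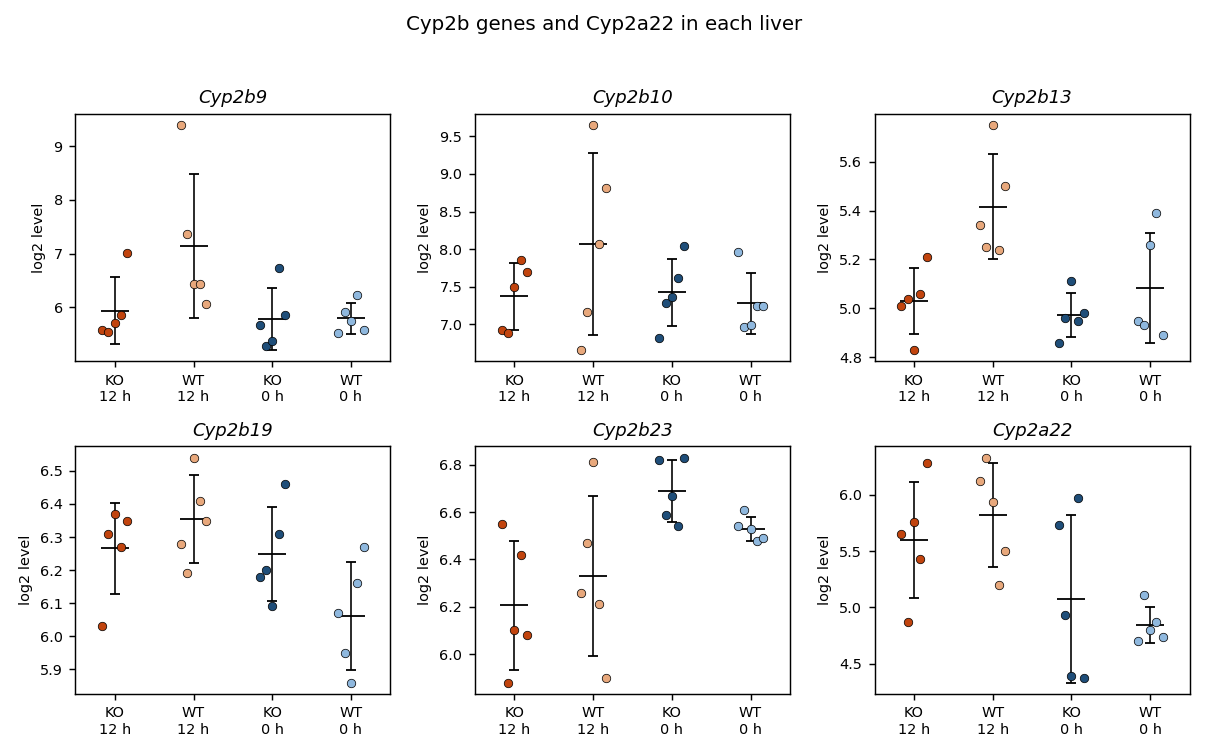
Log2 level (y axis) of the 5 Cyp2b genes and of Cyp2a22 in each liver, by group (x axis). Points are mice, the horizontal mark is the mean and the bars are 1 SD (n = 5 per group). The spread of Cyp2b9 and Cyp2b10 is largest in WT livers at 12 h, where single mice reach 9.39 and 9.65.

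The sex-biased lists were set beside these values. Of the female-biased P450 list, 5 of 10 genes were measured (Cyp2b9, Cyp2b10, Cyp2b13, Cyp3a16 and Cyp3a44), and their summed levels (log2, in which the brighter genes weigh most) were 8.72 to 9.29 in KO and 9.37 to 10.35 in WT livers at 12 h, with no overlap, and 8.96 to 9.30 in KO and 8.96 to 9.55 in WT livers at 0 h. None of the 5 passed for genotype. At 12 h the dim Cyp2b13 alone did not overlap, whereas Cyp2b9, Cyp2b10, Cyp3a16 and Cyp3a44 each overlapped between genotypes. Single WT mice at 12 h were high, mouse 111 at 9.39 for Cyp2b9 and mouse 168 at 9.65 for Cyp2b10. How often sums of other genes separate the genotypes was not tested. Of 8 measured male-biased genes, 0 passed for genotype, and Cyp2d9, the male testosterone 16α-hydroxylase, had 0.18 at 12 h and 0.03 at 0 h. At 12 h Cyp7b1 had 0.50, C4a 0.47 and Cyp2u1, a fatty acid hydroxylase, 0.27. Hsd3b5 had 0.09, Cyp4a12a 0.04 and Cyp4a12b 0.03. The largest of the list in size, Elovl3, went the other way at −0.64, and the list median was 0.13. Group means were 5.08 to 5.24 for Xist and 9.94 to 10.24 for the Y-linked Eif2s3y, as in male mice.

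Among the receptors, CAR had −0.47 at 12 h (11.23 in KO and 11.70 in WT livers on average, adjusted p = 0.137, limma) and −0.23 at 0 h, and PXR had −0.29 at 12 h and −0.23 at 0 h. At 12 h the genotypes did not overlap for CAR (10.79 to 11.56 in KO and 11.58 to 11.89 in WT livers). Nor did they for PXR (10.28 to 10.52 in KO and 10.61 to 10.76 in WT livers). Of all probe sets, 1.24% had every KO liver below every WT liver at 12 h. At 0 h both receptors overlapped between genotypes. No receptor, PAR bZIP factor, measured electron donor or regulator of sex-dependent expression in the lists passed for genotype. P450 oxidoreductase (Por) had no single-gene probe set with values. It is not among the 6 of 7 genes measured in the list of electron donors and heme supply. Of the cell type markers 0 passed for genotype at 12 h either. The median difference was −0.13 over 5 sinusoidal, −0.08 over 5 stellate and −0.13 over 5 periportal markers. It was 0.11 over 6 Kupffer cell and macrophage and 0.08 over 4 lymphocyte markers. As for CAR and PXR, the genotypes did not overlap at 12 h for the sinusoidal Stab2 (9.85 to 10.05 in KO and 10.12 to 10.55 in WT livers). Nor did they for the stellate Reln (9.48 to 9.76 in KO and 9.84 to 10.20 in WT livers). The summed levels of the periportal markers lay close together at 12 h without overlap (15.27 to 15.33 in KO and 15.34 to 15.48 in WT livers). At 0 h these sums overlapped (15.06 to 15.22 in KO and 15.09 to 15.23 in WT livers). Those of 7 pericentral markers were 14.10 to 14.38 in KO and 14.29 to 14.49 in WT livers at 12 h. The part of these cells in the P450 values was not tested.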

How the data were processed

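Total RNA of 20 mouse livers was measured on 1-colour arrays, 1 mouse per array. The authors deposited log2 expression values normalized by RMA (version not given). The study's methods describe RMA on core meta-probe sets for its testis arrays, and for livers the settings are not given in the sources used here. The table lists 35557 probe sets, and 25689 were tested because 9868 had no value. Probe sets were named through the platform annotation. A model with 1 mean per group was fitted to all 20 arrays by lmFit and eBayes of limma (version 3.58.1, under R 4.3.3, tested on simulated data), with Benjamini-Hochberg adjustment over 25689 probe sets, a threshold of 0.05 and 95% intervals. Exact permutation tests were two-sided. The number of arrays limits the precision.

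Every member was counted. Values by array were chosen for the called members with the largest time differences, the 6 members with the smallest p for genotype over both times, the brightest member of each larger subfamily and members with an array apart, and others shown by array were picked after their values were seen. The members and gene lists were chosen with earlier results of these data known. Alternatives were batch as a block, the 10 arrays compared alone, bright probe sets alone, quantile normalization, median centring, a robust trended prior, array weights, leaving out each array, and leaving out WT mice 80 and 170 together. Mice of 1 group are separate animals.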

Additional observations from a re-analysis of the deposited data

Results flagged for a closer look

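In 13 of 212 groups of 5 arrays (53 members in 4 groups) 1 mouse lay far from the rest by Dixon's ratio, where chance gives about 10.6, or 1 in 20. In KO livers at 12 h, Cyp2b9 was at 7.02 in mouse 166 against 5.55 to 5.86 in the others, and Cyp2b19 at 6.03 in mouse 18 against 6.27 to 6.37. Mouse 55 of that group was low for Cyp2c54 (11.79 against 12.29 or more) and Cyp2j6 (10.52 against 10.97 to 11.13) and high for Cyp2j9 (8.79 against 8.10 to 8.27). Cyp2f2 was at 13.38 in mouse 109 against 13.46 to 13.49.

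In WT livers at 12 h, Cyp2e1 was at 14.13 in mouse 111 against 14.02 to 14.05, and in KO livers at 0 h it was at 13.78 in mouse 76 against 13.89 to 13.92. In WT livers at 0 h, mouse 147 was low for Cyp2d9 (12.07 against 12.29 to 12.30) and Cyp2d34 (6.67 against 7.05 to 7.18) and high for Cyp3a16 (4.82 against 4.47 to 4.55). Mouse 146 of that group was high for Cyp2j5 (13.09 against 12.89 to 12.91) and Cyp2j11 (5.42 against 5.10 to 5.18).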

How the results depend on the processing

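No paired analysis was possible because no mouse number occurs in more than 1 group. For genotype and for the interaction, 0 members passed under any alternative run. Between times 14 members passed in KO livers, with 10 to 15 when single arrays were left out and 12 to 18 under the other alternatives. In WT livers 18 passed, with 12 to 19 when single arrays were left out and 13 to 19 otherwise. The naming rule chose 22 pairs of a gene and a comparison (17 genes). Of their 603 values under these alternatives, 0 changed sign and 44 lost a call, 21 of them those of Cyp2c38 in WT livers. Over all members called, 5 of 14 in KO and 10 of 18 in WT livers lost their call in at least 1 alternative. Outside the 22 pairs, Cyp2c68 lost it in 10 of 28 in KO and 3 of 28 in WT livers, and Cyp2w1 in 11 of 27 in WT livers. Cyp2c70, Cyp2d22, Cyp2d37-ps, Cyp2d40 and Cyp2r1 kept their calls in both genotypes in all 28. The correlation within batches, as a random block, was 0.029. Dim probe sets limit what could be seen for Cyp2b13, Cyp2c65, Cyp3a16 and Cyp2j12.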
